A study of Rattus norvegicus with 3 samples.

Results

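The cells described here are those of 5 neutrophil-rich clusters, 3 of the 18 clusters of the crossbite library and 2 of the 19 clusters of the crossbite library that also received miR-330. They are 5 of the 37 clusters of those libraries and 5 of the 52 clusters of the series. The clusters were chosen by measured values, so those values describe the clusters and test nothing. A cluster was taken when S100a8 and S100a9, which encode the calprotectin subunits that fill the neutrophil cytosol, made up at least 10% of its summed counts. The cluster highest in Cxcr2, the chemokine receptor of neutrophils ready to leave the marrow, was then left out of each library as the mature cluster. The cluster highest in Elane, which encodes neutrophil elastase of the earliest granules, was left out in the same way as the early cluster.

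The cells came from cartilage and subchondral bone of the mandibular condyle of SD rats, all labelled as WT rat with AAV injection, and the study asks how miR-330 acts in joint degeneration under abnormal bite load. All groups had an AAV articular injection into the temporomandibular joint. The sham group received Vector AAV without UAC. UAC is the unilateral anterior crossbite, a dental device that loads the joint unevenly, and this group received Vector AAV. The UAC + miR-330 group received miR-330 AAV with the crossbite. The labels give both crossbite samples the same treatment text, so the assignment of miR-330 rests on the sample title and the design text. The labels give neither the duration of the crossbite nor an age; the duration is stated in the methods of the study. Each group is 1 library made from 16 pooled condyles of 8 rats, so animals cannot be told apart and there are no replicates. The labels name chondrocytes and osteoclasts as the cell types, and the marrow cells described here are not among them.

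Each transcript was counted by its unique molecular identifier, or UMI. The sham library held 77668015 UMIs in 15 clusters, the UAC library 92629658 UMIs and the UAC + miR-330 library 97255383 UMIs. Levels are given as CPM, which is how many of every 1000000 UMIs in a cluster belong to the gene. Intervals are 95% intervals that cover counting error only, exact Poisson for levels, exact conditional binomial for ratios and exact Clopper-Pearson for shares. The number of cells per cluster is not in the files, so shares are shares of UMIs and more cells cannot be told apart from more RNA per cell.

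Neutrophils mature in the bone marrow through a fixed order of granule formation. Dividing promyelocytes make primary granules with myeloperoxidase, serine proteases and defensins, myelocytes, which still divide, and metamyelocytes, which no longer do, make secondary granules with lactoferrin, cathelicidin and lipocalin, and band cells make gelatinase granules. The transcripts of each granule class fade as the next appears, and the mature cell switches to receptors, cytokines and interferon-response genes.

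In the UAC library, S100a8 plus S100a9 took 36.9% of the UMIs of cluster 12, 34.4% of cluster 7 and 27.9% of cluster 18, and the next cluster below the threshold, cluster 6, had 1.09%. In the UAC + miR-330 library, cluster 9 had 31.3% and cluster 15 had 28.7%, and the next cluster below, cluster 5, had 0.445%. The clusters left out were also neutrophil-rich, with 1 exception. The mature clusters had 23.5% in UAC (cluster 8) and 19.8% in UAC + miR-330 (cluster 6). The early cluster of UAC + miR-330, cluster 18, had 16.8%. The early cluster of UAC, cluster 13, had 0.417% and so was below the threshold in any case.

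By leading genes, the working name of these clusters, intermediate neutrophils, held for 2 of the 5. Among the 10 genes with the largest ratio to the rest of their library, UAC cluster 12 and UAC + miR-330 cluster 9 carried the intermediate markers Ngp, a cathelicidin-like protein of secondary granules, and Lcn2, the iron-siderophore trap lipocalin. UAC cluster 18 carried none of the 5 intermediate markers in its top 10, and was led by the defensins Defa11, RatNP-3b, Defa5 and Np4 with the early granulocyte marker Ms4a3. UAC cluster 7 and UAC + miR-330 cluster 15 carried none either. Both had among their top 10 Mmp9, the gelatinase, Mmp8, the neutrophil collagenase, Retnlg, a resistin-like secreted protein, and the mature marker Fpr1, the receptor for bacterial formyl peptides, with Stfa3 first in cluster 7 and Fpr1 first in cluster 15. The clusters are therefore called below by number as the defensin-led cluster 18, the Ngp-rich clusters 12 and 9, and the Mmp8-rich clusters 7 and 15. These names mark a high gene, which need not be the first of the 10. The rest of a library holds its other chosen clusters, so a marker that they share is held back in this ranking. By level, the markers Camp and Ngp were higher in each of the 5 clusters than in the mature cluster of the same library. Of the intermediate markers, Ltf, which encodes lactoferrin, was nearly absent, with 1 UMI in cluster 12 and 0 in the other 4 clusters. A count of 0 allows up to 0.645 CPM in cluster 9 and more in clusters 18, 7 and 15, which hold fewer UMIs.

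The 5 clusters took different parts of their libraries. The 3 clusters of UAC together held 13.5% of its UMIs (95% interval 13.49% to 13.50%), and the 2 clusters of UAC + miR-330 held 8.12% (8.11% to 8.12%). In the sham library the same rule gave a single cluster, cluster 10, with 6.12%. The difference between the crossbite libraries depends on where the early cluster was drawn. Counting every cluster past the threshold, the shares were 10.05% in sham, 15.9% in UAC and 14.2% in UAC + miR-330. These shares hold the mature cluster of each library, but the early cluster of UAC + miR-330 alone (cluster 18, 3.58%). The early clusters of UAC (cluster 13, 3.69%) and of sham (cluster 14, 1.99%) were below the threshold and are not in them. At a threshold of 20%, which both left-out clusters of UAC + miR-330 miss, its share was 8.12% and that of UAC again 15.9%, a setting tried for these shares after the values were seen.

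**Figure D1:**
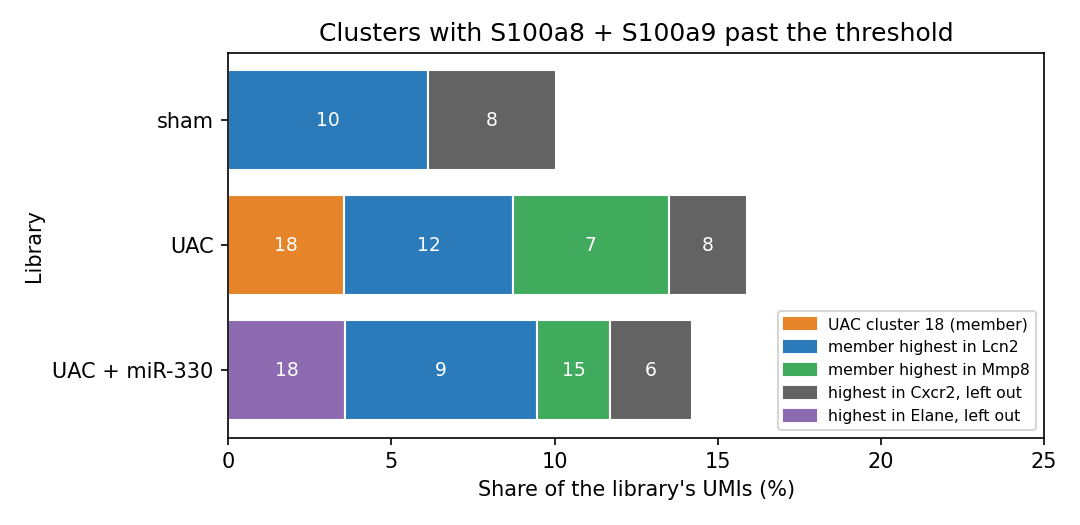
Share of the UMIs of each library (percent, horizontal axis) held by every cluster past the threshold, 1 bar per library, with cluster numbers on the segments and colours for the part each cluster plays. The orange segment, cluster 18 of UAC at 3.56%, counts among the 5 clusters, and the purple segment, cluster 18 of UAC + miR-330 at 3.58%, was left out as highest in Elane.

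By granule genes the clusters of each crossbite library can be laid in an order from defensins to chemokines. The primary granule genes stood out in the defensin-led cluster. Np4, a neutrophil defensin, was at 33695 CPM in UAC cluster 18, 773 in cluster 12, 38.2 in cluster 7 and 45.6 in the mature cluster 8. In UAC + miR-330 it was at 39970 CPM (39969.6) in the left-out cluster 18, 3161 in cluster 9, 49.2 in cluster 15 and 45.5 in the mature cluster 6. Among the clusters past the threshold, cluster 18 of each library was thus the highest for Np4, and the Mmp8-rich and mature clusters were the lowest. Over the remaining clusters, without UAC cluster 13, the median was 37.2 CPM in UAC and 33.6 CPM in UAC + miR-330. RatNP-3b, a further defensin, had 78172 CPM in UAC cluster 18, 2201 in cluster 12 and 41.3 in cluster 7. In UAC + miR-330 RatNP-3b had 6679 CPM in cluster 9 and 51.9 in cluster 15, against 79035 in the left-out cluster 18.

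Myeloperoxidase separated these defensin-rich clusters from each other. Mpo, the enzyme that makes hypochlorous acid, was at 297 CPM in UAC cluster 18 (278 to 316) and at 1125 CPM in UAC + miR-330 cluster 18. It was at or under 2.03 CPM in the other 4 of the 5 clusters, with 4 UMIs in cluster 12, 9 in cluster 7, 5 in cluster 9 and 3 in cluster 15. Proteinase 3, encoded by Prtn3, was at 10.01 CPM in UAC cluster 18 and at 690.1 CPM in UAC + miR-330 cluster 18. So UAC cluster 18 was high in defensins with little of the serine protease transcripts that accompanied them in UAC + miR-330 cluster 18. Over the 20 measured primary granule genes the summed level was 149817 CPM in UAC cluster 18, 15357 in cluster 12, 13950 in cluster 7, 26605 in cluster 9 and 19026 in cluster 15. Lyz2, the lysozyme that persists through all stages, made up most of the sum in clusters 7 and 15, with 10295 and 15742 CPM.

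As a sum the secondary granule genes were highest in the Ngp-rich clusters, while single genes differed in their order. Ngp was at 6141 CPM in UAC cluster 18, 47036 in cluster 12 and 16670 in cluster 7, and at 192 in the mature cluster 8. In UAC + miR-330 it was at 33722 CPM in cluster 9 and 3900 (3899.59; 3817 to 3983) in cluster 15, and at 87.4 in the mature cluster 6. Lcn2 was highest in the same clusters but higher in cluster 18 than in cluster 7, with 2847, 11517 and 1767 CPM in UAC clusters 18, 12 and 7 and 10588 and 923 CPM in UAC + miR-330 clusters 9 and 15. Camp, which encodes the cathelicidin antimicrobial peptide, was at 41327 CPM in cluster 18, 38391 in cluster 12 and 13848 in cluster 7. It was at 36447 CPM in cluster 9 and 11626 in cluster 15, so that of the 5 clusters Camp was highest in the defensin-led cluster 18, unlike Ngp and Lcn2. The 17 measured secondary granule genes summed to 55391 CPM in cluster 18, 108088 in cluster 12, 51705 in cluster 7, 94360 in cluster 9 and 36512 in cluster 15.

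Other genes of the secondary granule list had levels closer together in the Ngp-rich and Mmp8-rich clusters. Hp, the haemoglobin scavenger haptoglobin, was at 70.6 CPM in UAC cluster 18, 516 in cluster 12 and 750.2 in cluster 7, and at 814 and 937 CPM in clusters 9 and 15. Cd177, a surface glycoprotein held with proteinase 3, was at 371, 1139 and 831 CPM in clusters 18, 12 and 7 and at 1048 and 739 CPM in clusters 9 and 15. Olfm4, olfactomedin of a neutrophil subset, was at 317, 679 and 525 CPM in the UAC clusters and at 1194 and 897 CPM in clusters 9 and 15. Olfm4 and Hp were thus higher in both UAC + miR-330 clusters than in the UAC cluster of the same name.

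Mmp8, Mmp9 and Retnlg were higher in the Mmp8-rich than in the Ngp-rich clusters, while the gelatinase and secretory vesicle list was split. Of its 13 genes tested, 6 were higher in cluster 12 than in cluster 7 (median log2 ratio -0.32) and 5 in cluster 9 than in cluster 15 (median -0.18). Mmp8 was at 110.4 CPM in UAC cluster 18, 1984 in cluster 12, 9802 in cluster 7 and 7356 in the mature cluster, and at 3183 and 9975 CPM in UAC + miR-330 clusters 9 and 15. Mmp9 was at 15.8, 186 and 1306 CPM in UAC clusters 18, 12 and 7 and at 537 and 1468 CPM in clusters 9 and 15. Mmp9 was lower again in the mature clusters, at 398 and 616 CPM. Retnlg had 243, 751 and 13003 CPM in UAC clusters 18, 12 and 7, and stayed as high in the mature cluster at 13412. In UAC + miR-330 Retnlg had 1214 CPM in cluster 9 and 11910 (11909.8) in cluster 15, with 12011 in the mature cluster 6.

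**Figure D2:**
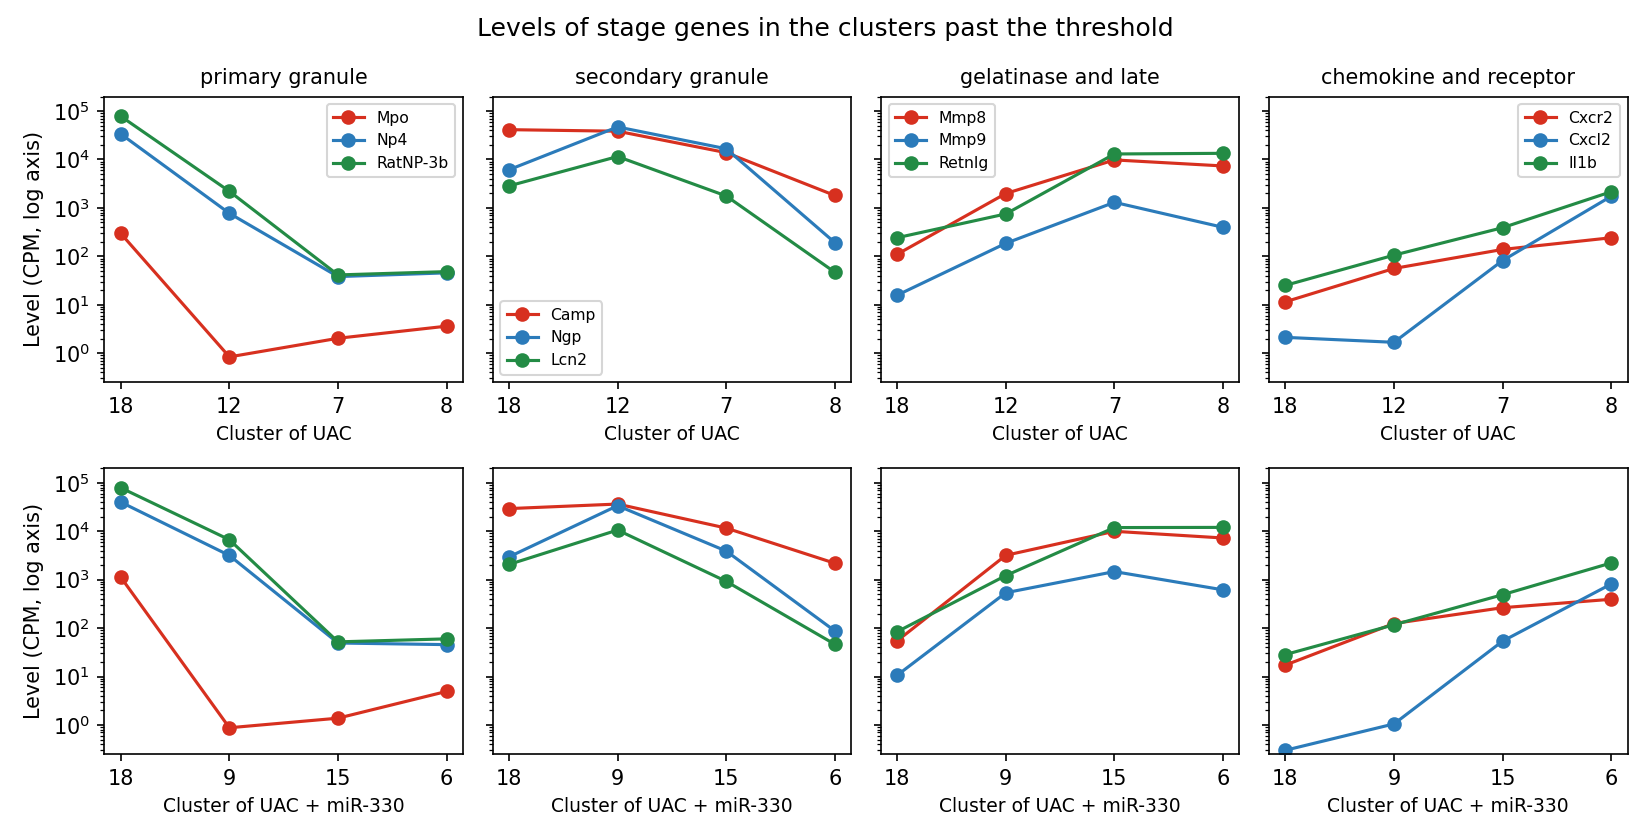
Level in CPM (log axis) of 12 stage genes in the clusters past the threshold of UAC (upper panels) and UAC + miR-330 (lower panels), each point a cluster and each colour a gene, with the mature cluster at the right end. Ngp and Lcn2 peak in clusters 12 and 9 and Mmp9 in clusters 7 and 15, and cluster 18 of UAC + miR-330 is shown although it was left out of the 5.

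The defensin-led cluster also carried the transcripts of dividing cells. Compared with cluster 12, 1119 of 6185 genes tested were at least 2-fold higher in cluster 18 (18.1%) and 367 were at least 2-fold lower (5.93%), where a gene was tested when it had at least 50 UMIs in the compared sets together. Over all genes 3776 were higher, with a median log2 ratio of 0.21. A gene that is low in 1 of the compared sets reaches 50 UMIs through the other alone, so a list counted over such genes leans to the side where they are high. Lists were therefore also counted over the 6075 genes with at least 50 UMIs in the sham clusters past the threshold, which are in none of these comparisons; this gene set was defined with the other counts already known. These genes are called below the genes chosen in sham, and 24 of the 28 matched cell cycle genes are among them. All 24 were at least 2-fold higher in cluster 18 than in cluster 12, each with an interval above 0 (median 4.48), beside a median of 0.14 over all genes chosen in sham. Mki67, a marker of dividing cells, was at 240.4 CPM in cluster 18, 5.66 in cluster 12, 9.48 in cluster 7, 36.2 in cluster 9 and 16.1 in cluster 15. Top2a, the topoisomerase of replicating chromosomes, was at 323 CPM in cluster 18 and between 2.10 and 16.6 CPM in the other 4 of the 5. All 21 genes of the secretory pathway list, which load proteins into the endoplasmic reticulum, were also higher in cluster 18 (median 1.07). The secondary granule list went the other way, with 13 of 14 genes lower and a median of -1.48. Hmgn2, a nucleosome-binding protein, was at 4399.7 CPM in cluster 18 and between 1224 and 1534 CPM in the other 4.

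The Ngp-rich and Mmp8-rich clusters were set against each other within each library. UAC cluster 12 had 483 of 5882 genes at least 2-fold above cluster 7 (8.21%) and 492 at least 2-fold below (8.36%). UAC + miR-330 cluster 9 had 650 of 6009 genes at least 2-fold above cluster 15 (10.8%) and 460 at least 2-fold below (7.66%). With the median of all genes taken off, the counts were 530 above and 459 below in UAC, and 686 and 421 in UAC + miR-330. Ribosomal protein genes were higher in the Ngp-rich cluster for 63 of 69 genes tested in UAC (median 0.57) and 63 of 68 in UAC + miR-330 (median 0.55), where 2758 of all 5882 and 2874 of all 6009 genes tested were higher (medians -0.04 and -0.04). Cytokines and chemokines were lower there for 8 of 9 genes in UAC (median -1.88) and 9 of 9 in UAC + miR-330 (median -1.64), and among the genes chosen in sham for 10 of 13 (median -0.29) and 12 of 13 (median -0.94). Interferon-response genes were lower for 17 of 22 (median -1.56) and for 17 of 21 (median -1.57). Of the cell cycle genes chosen in sham 19 of 24 were higher in UAC (median 0.35) and 23 of 24 in UAC + miR-330 (median 1.16), with intervals above 0 for 5 and 8 of them. Primary granule genes were higher for 6 of 10 (median 0.62) and 7 of 12 (median 1.82). Heat shock genes were higher for 3 of 8 (median -0.17) in UAC and 6 of 8 (median 0.46) in UAC + miR-330, and S100 genes for 2 of 6 (median -0.59) and 3 of 4 (median 0.11). These are clusters of the same clustering, so the differences describe how the clusters were divided.

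The genes of the respiratory burst did not share a peak. Cybb, the catalytic subunit of the phagocyte NADPH oxidase, was at 1697, 1741 and 429 CPM in UAC clusters 18, 12 and 7 and at 2165 and 443 CPM in UAC + miR-330 clusters 9 and 15. Ncf1, a cytosolic subunit of the same oxidase, was instead highest in clusters 7 and 15, with 593 and 693 CPM against 480.2 and 565 CPM in clusters 12 and 9. Padi4, which citrullinates histones during extracellular trap formation, was at 43.7, 224 and 424 CPM in UAC clusters 18, 12 and 7 and at 244 and 477 CPM in clusters 9 and 15.

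Among transcription factors, Cebpe, the regulator of secondary granule genes, was at 224 CPM in UAC cluster 18, 318 in cluster 12 and 79.9 in cluster 7, and at 5.42 in the mature cluster 8. In UAC + miR-330 Cebpe was at 305 CPM in cluster 9 and 64.8 in cluster 15, and at 8.21 in the mature cluster 6. Cebpe thus had the order of Lcn2 over the UAC clusters, which is not that of Ngp. Cebpb, a factor of mature and stimulated neutrophils, ran the other way, with 574, 605 and 1040.5 CPM in clusters 18, 12 and 7 and 467 and 1188 CPM in clusters 9 and 15. Gfi1, a repressor needed for granulocyte formation, was at 53.4, 25.6 and 2.93 CPM in the UAC clusters and at 23.4 and 0.460 CPM in clusters 9 and 15.

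The inflammatory transcripts named here were lower in all 5 clusters than in the mature clusters, and of the 5 were highest in the Mmp8-rich ones. Il1b, interleukin 1 beta, was at 25.2, 106 and 391 CPM in UAC clusters 18, 12 and 7 and at 117 and 489 CPM in UAC + miR-330 clusters 9 and 15, against 2158 and 2213 CPM in the mature clusters. Cxcl2, a neutrophil-attracting chemokine, was at 2.12, 1.68 and 81.9 CPM in the UAC clusters and at 1.05 and 53.8 CPM in clusters 9 and 15, against 1739 and 814 CPM in the mature clusters. Ccl6, a chemokine of myeloid cells, was at 7.88, 8.59 and 305 CPM and at 5.77 and 175 CPM, against 6937 and 4803 CPM in the mature clusters. Clusters 7 and 15 were therefore between the Ngp-rich and the mature clusters for these genes. G0s2, an inhibitor of fat breakdown that rises late, was at 209, 720 (719.9) and 2047 CPM in the UAC clusters and at 368 and 1245 CPM in clusters 9 and 15, with 7946 and 4636 CPM in the mature clusters.

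Against the mature cluster of the same library, the summed clusters of UAC had 1137 of 7331 genes at least 2-fold higher (15.5%) and 1280 at least 2-fold lower (17.5%). Those of UAC + miR-330 had 756 of 6628 higher (11.4%) and 1043 lower (15.7%). Over all genes 3169 and 2617 were higher, and the median was -0.16 and -0.20. With the median taken off, the balance of the counts turned. Then 1350 genes were higher and 966 lower in UAC, and 974 higher and 751 lower in UAC + miR-330. Primary and secondary granule genes were more often higher than lower: 10 of 14 primary granule genes in UAC (median 3.60) and 8 of 12 in UAC + miR-330 (median 2.91; 8 of 13 with a median of 1.84 among the genes chosen in sham), and 10 of 14 secondary granule genes in both (medians 2.28 and 2.48). As a sum the primary granule list was higher in UAC, at 50338 CPM against 21951, and lower in UAC + miR-330, at 24516 CPM against 28263 (log2 ratio -0.21, -0.22 to -0.19). The gelatinase and secretory vesicle list was split, with 7 of 13 higher in both (medians 0.01 and 0.02). Cytokine and chemokine genes were on the low side, with 13 of 14 in UAC (median -3.22) and 13 of 13 in UAC + miR-330 (median -3.76).

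Other response lists were low beside the mature cluster as well. Of the NF-kB list, the pathway that drives inflammatory transcription, 27 of 28 genes were lower in UAC (median -1.15) and 27 of 28 in UAC + miR-330 (median -1.27). Of the interferon list, 23 of 26 were lower in UAC (median -2.57) and 22 of 26 in UAC + miR-330 (median -2.92), with Ifit3 at 61.4 CPM in cluster 7 and 91.9 in cluster 15 against 1698 and 1522 in the mature clusters. Growth factor and cytokine receptors were lower for 12 of 13 genes in both libraries (medians -1.71 and -1.28). Il1r2, the decoy receptor for interleukin 1, was at 15.2, 121 and 951 CPM in UAC clusters 18, 12 and 7 and at 206 and 1004 CPM in clusters 9 and 15, against 2093 and 1703 CPM. Immediate early genes, which respond within minutes to stimulation, were lower for 18 of 19 (median -0.80) and 17 of 19 (median -0.92), and apoptosis genes for 11 of 13 (median -1.28) and 13 of 13 (median -1.14). Of the 24 cell cycle genes chosen in sham, 23 were higher than in the mature cluster in UAC, with cluster 18 in the sum (median 3.01), and 19 in UAC + miR-330 (median 0.97). Intervals were above 0 for 23 and 7 of them and below 0 for 1 and 2. The whole list summed to 836 CPM against 264 in UAC and to 214 CPM against 241 in UAC + miR-330. Respiratory chain genes were higher for 19 of 23 in both (medians 0.53 and 0.44) and glycolysis genes for 6 of 14 and 8 of 14 (medians -0.01 and 0.10), or above the median of all genes for 8 and 9 of 14.

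The early clusters were not alike in the 2 libraries, so the comparison with them has a different meaning in each. UAC cluster 13 was high in Elane (968 CPM) but also in transcripts of other cells: all 8 mast and basophil markers had at least 10 UMIs and summed to 14375 CPM, most of it Mcpt10, a mast cell protease, at 9946 CPM. It also had 4 of 5 eosinophil markers, which summed to 3853 CPM with Prg2, the eosinophil granule major basic protein, at 3676, and 9 of 9 erythroid markers, which summed to 10192 CPM with Hba-a1 at 7040.3. The immunoglobulin heavy chain Igh-6 was at 39712 CPM there. UAC + miR-330 cluster 18 had Elane at 1621 CPM, mast and basophil markers at 10669 CPM for 8 of 8 and eosinophil markers at 2311 CPM for 3 of 5, with Prg2 at 2283 CPM, Epx at 14.6, Prg3 at 13.5 and Ccr3 at 0. In the 5 clusters the mast and basophil markers summed to between 12.9 and 40.6 CPM and the eosinophil markers to between 3.68 and 6.77 CPM. The part these other cells have in the differences from the early cluster was not tested.

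Against these early clusters, the summed clusters of UAC had 1803 of 7978 genes at least 2-fold higher (22.6%) and 1882 at least 2-fold lower (23.6%). Those of UAC + miR-330 had 858 of 7410 higher (11.6%) and 2029 lower (27.4%), and over all genes 3868 and 2960 were higher, with medians of -0.05 and -0.28. With the median taken off, 1864 genes were higher and 1810 lower in UAC, and 1274 and 1635 in UAC + miR-330. Among the genes chosen in sham, 3502 of 6075 were higher in UAC and 2740 in UAC + miR-330 (medians 0.22 and -0.13), and 894 and 1293 were at least 2-fold lower. Secondary granule genes were higher for 14 of 15 in UAC (median 5.86) and for 13 of 14 in UAC + miR-330 (median 2.15), and gelatinase and secretory vesicle genes for 13 of 13 (median 4.01) and 10 of 13 (median 0.99). Secretory pathway genes were lower for 20 of 21 (median -2.32) and 21 of 21 (median -2.02). Ribosomal protein genes were lower for 69 of 71 (median -1.70) and 67 of 70 (median -1.67), and heat shock genes for 10 of 10 (median -1.72) and 9 of 9 (median -1.37). Primary granule genes parted by library: in UAC 8 of 15 were higher (median 0.58; 8 of 13 with a median of 1.65 among the genes chosen in sham), and in UAC + miR-330 13 of 15 were lower (median -4.56). Of the 24 cell cycle genes chosen in sham, 15 were higher in UAC (median 0.29), 12 of them above the median of all genes chosen in sham, and 24 were at least 2-fold lower in UAC + miR-330 (median -4.15), each with an interval below 0.

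The genes most enriched in the summed clusters over both neighbours in both libraries, ranked by the smallest of the 4 log2 ratios, were Stbd1 (3.46), Ngp (3.11), Ugt1a7c (2.31), St3gal5 (2.30), Itga8 (2.26), Hp (2.21), Cd177 (2.19), Ifitm6 (2.10), Gprc5d (2.04) and Pcsk6 (1.95). Stbd1, which tethers glycogen to membranes, was at 19.4, 179 and 79.7 CPM in UAC clusters 18, 12 and 7 and at 132 and 35.4 CPM in UAC + miR-330 clusters 9 and 15, against 0.903 and 1.64 CPM in the mature clusters. St3gal5, the synthase of the ganglioside GM3, was at 45.5, 170.2 and 89.6 CPM and at 218 and 75.8 CPM. Itga8, an integrin alpha chain, was at 23.6, 60.8 and 36.6 CPM and at 108 and 39.5 CPM. All 3 had their highest level in cluster 12 or cluster 9. Ifitm6, a membrane protein of the interferon-induced family, was instead spread over both stages, with 65.8, 241 and 273 CPM in the UAC clusters and 406 and 421 CPM in clusters 9 and 15.

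The starts of these genes were searched for a short form of the C/EBP binding motif, since Cebpe regulates secondary granule genes. The motif was TTNNGCAA with its reverse complement TTGCNNAA, read on both strands, in RefSeq windows of 300 bases, 250 before and 50 after the start, on build GRCr8. It was present in 3547 of 33469 windows (10.6%). Of 14 genes looked up, the 5 intermediate markers and the 10 enriched genes with Ngp in both, 12 had a window and 3 held the motif: Ngp, Lcn2 and St3gal5, the last in 1 of its 2 windows. The windows of Camp, Ltf, Stbd1, Ugt1a7c, Itga8, Cd177, Ifitm6, Gprc5d and Pcsk6 did not hold these letters. The windows of 2 markers among the top 10 of clusters 12 and 9 are shown because these genes set those clusters apart, Ngp at chr8:119272355-119272654 on the plus strand with 2 matches and Lcn2 at chr3:36081731-36082030 on the minus strand with 1, the matches in capitals. A match is a description, not a site or a cause.
Ngp: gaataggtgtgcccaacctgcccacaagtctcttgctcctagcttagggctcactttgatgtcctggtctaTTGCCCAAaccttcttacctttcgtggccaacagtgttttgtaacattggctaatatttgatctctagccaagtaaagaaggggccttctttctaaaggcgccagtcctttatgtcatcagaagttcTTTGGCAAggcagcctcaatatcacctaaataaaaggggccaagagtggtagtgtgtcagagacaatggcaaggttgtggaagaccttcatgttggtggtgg
Lcn2: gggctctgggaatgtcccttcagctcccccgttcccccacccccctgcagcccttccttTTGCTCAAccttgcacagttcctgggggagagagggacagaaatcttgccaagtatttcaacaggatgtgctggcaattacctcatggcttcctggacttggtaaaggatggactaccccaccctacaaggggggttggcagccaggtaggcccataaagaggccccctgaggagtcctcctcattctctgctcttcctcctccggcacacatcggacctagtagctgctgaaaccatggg

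The comparison of UAC + miR-330 with UAC asks whether the microRNA vector goes with a different state of these cells under the crossbite. Over the summed clusters, 299 of 7870 genes were at least 2-fold higher with miR-330 (3.80%) and 443 at least 2-fold lower (5.63%). Over all genes 5004 of 7870 were higher with a median log2 ratio of 0.17, and after it was taken off the counts were 146 higher and 564 lower. The largest differences were those of the defensin-led cluster 18, which is in the UAC sum and has its nearest like in UAC + miR-330 in the left-out cluster 18. The 10 largest falls were Mpo (-6.20), LOC100359539 (-4.71), Defa11 (-4.64), Pclaf (-4.31), Ms4a3 (-3.88), Cdca3 (-3.86), Asf1b (-3.83), Spc25 (-3.57), Ccna2 (-3.40) and Ncaph (-3.37), among them granule genes of early cells and genes of replication and mitosis. The 10 largest rises were AABR07000398.1 (2.92), Ablim3 (2.65), AABR07015057.1 (2.47), LOC100909700 (2.20), AABR07031756.2 (1.89), Mob2 (1.78), Bach1 (1.74), Rap1b (1.72), Sun2 (1.68) and AABR07019086.1 (1.67), of which AABR07000398.1 alone was above 100 CPM in UAC + miR-330. Of the cell cycle genes chosen in sham 24 of 24 were at least 2-fold lower (median -2.33), each with an interval below 0, and of the primary granule list 13 of 15 were lower (median -1.88), or 12 of 13 of those chosen in sham.

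Without cluster 18 on the UAC side, the medians of these lists turned. Then 352 of 7230 genes were at least 2-fold higher with miR-330 (4.87%) and 41 at least 2-fold lower (0.567%), with 5483 of all 7230 genes higher, a median of 0.27 over all genes, and 122 higher and 104 lower after it was taken off. Of the cell cycle genes chosen in sham 22 of 24 were now higher (median 0.76), 11 of them with an interval above 0 and 1 of the 24 with an interval below 0, beside 4569 of all 6075 genes chosen in sham (median 0.25). Of the primary granule list 9 of 13 were higher (median 0.48). Among those chosen in sham it was 8 of 13 (median 0.38), and 7 of 13 were above the median of all genes chosen in sham. Np4 was at 419 CPM in UAC clusters 7 and 12 together and at 2304 CPM in UAC + miR-330, a log2 ratio of 2.46 (2.41 to 2.51) where it had been -1.998 with cluster 18. Mpo had 13 and 8 UMIs, too few to tell a direction (log2 ratio -0.45, -1.96 to 0.90), and the 3 of the 10 largest falls that still had 50 UMIs, Defa11, LOC100359539 and Ms4a3, were higher. Both libraries had a cluster 18 with high cell cycle genes, whose list summed to 2775 CPM in UAC and 3295 CPM in UAC + miR-330, and the rule left out the latter as highest in Elane.

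The counts of the lists have to be read beside those over all genes, of which 5004 of 7870 were higher with cluster 18 and 5483 of 7230 without. Of the S100 list 5 of 6 genes were lower with it and 6 of 6 without it (medians -0.18 and -0.30), a list that includes the genes that chose the clusters. Transcription factors of granulocyte formation were higher for 12 of 17 genes in both (medians 0.33 and 0.50), and adhesion and migration genes for 16 of 20 in both (medians 0.39 and 0.23). Relative to the median of all genes the transcription factors were above it for 10 of 17 in both, and the adhesion list for 15 of 20 with cluster 18 and for 10 of 20 without. Ceacam1, a carcinoembryonic adhesion molecule, was at 235 CPM in UAC without cluster 18 and at 430.1 CPM in UAC + miR-330, a log2 ratio of 0.87 (0.79 to 0.95). Relative to the median of all genes, Ceacam1 was at 0.59.

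The other lists had medians within 1 log2 unit of 0. Each is given first with cluster 18 and then without. Against the median of all genes, ribosomal proteins were below it for 67 of 70 genes and 66 of 70, respiratory chain genes for 22 of 23 and 18 of 23, cytokines and chemokines for 9 of 12 and 12 of 12, heat shock genes for 8 of 9 and 8 of 8, glycolysis genes for 10 of 14 in both, immediate early genes for 13 of 19 and 14 of 19, and stefin and serpin inhibitors for 8 of 10 and 7 of 10. The secretory pathway was below it for 18 of 21 and 11 of 20, receptors for 6 of 12 and 9 of 12, apoptosis genes for 6 of 13 and 8 of 13, gelatinase and secretory vesicle genes for 7 of 13 and 8 of 13, and nuclear shape and extracellular trap genes for 5 of 9 and 4 of 9. Above it were NF-kB genes for 14 of 27 and 12 of 27, interferon genes for 17 of 25 and 11 of 25, secondary granule genes for 9 of 15 and 3 of 14, and NADPH oxidase genes for 4 of 7 and 1 of 7. The medians without that shift taken off were -0.28 and -0.03 for ribosomal proteins, -0.11 and 0.11 for the respiratory chain, -0.42 and -0.08 for cytokines and chemokines, -0.30 and 0.06 for heat shock, 0.01 and -0.01 for glycolysis, 0.04 and -0.18 for immediate early genes, and -0.26 and -0.18 for stefins and serpins. They were -0.16 and 0.18 for the secretory pathway, 0.21 and -0.002 for receptors, 0.22 and 0.10 for apoptosis, 0.12 and 0.05 for gelatinase and secretory vesicle genes, -0.12 and 0.28 for nuclear shape and extracellular traps, 0.26 and 0.16 for NF-kB, 0.32 and 0.13 for interferon, 0.22 and 0.01 for secondary granules and 0.23 and 0.06 for the NADPH oxidase. The median of all genes was 0.17 with cluster 18 and 0.27 without.

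The clusters of the same name were also set side by side, a pairing chosen after the values were seen. The Ngp-rich pair was taken as the cluster highest in Lcn2 of each library, 9 against 12, and the Mmp8-rich pair as the cluster highest in Mmp8, 15 against 7, so Lcn2 and Mmp8 are not findings of it. In the Ngp-rich pair 384 of 6424 genes were at least 2-fold higher with miR-330 (5.98%) and 27 lower (0.420%), with 4838 of all genes higher, a median of 0.29, and 158 and 84 genes after it was taken off. In the Mmp8-rich pair 291 of 5204 were higher (5.59%) and 49 lower (0.942%), with 3891 of all genes higher, a median of 0.28, and 63 and 120 after it was taken off. Among the genes chosen in sham, 366 of 6074 were at least 2-fold higher and 28 lower in the Ngp-rich pair. In the Mmp8-rich pair it was 387 and 126 of 6074. The median of all genes was 0.07 over 14265 genes in the clusters outside the neutrophil range. Those are the 13 clusters of UAC and 15 of UAC + miR-330 that were neither past the threshold nor early, so that UAC cluster 13 is not among them.

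Single genes of earlier and later stages were higher in cluster 9 than in cluster 12, but the gelatinase and cytokine lists were not above all genes. Defa5, a defensin, was at 215 CPM in cluster 12 and 1323 in cluster 9, a log2 ratio of 2.62 (2.53 to 2.72). Mki67 was at 5.66 and 36.2 CPM, a log2 ratio of 2.65 (2.09 to 3.31). At the other end Mmp9 was at 186 and 537 CPM, a log2 ratio of 1.53 (1.42 to 1.64). The gelatinase and secretory vesicle list as a whole had 6 of 13 genes above the median of all genes (median 0.28 beside 0.29), and the cytokine list 1 of 9. Ngp was lower in cluster 9, at -0.48 (-0.49 to -0.47), and Camp nearly level, at -0.07 (-0.08 to -0.07). Relative to the median of all genes Ngp was at -0.77 and Camp at -0.36.

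In the Mmp8-rich pair, Ngp was lower in cluster 15 than in cluster 7 while the secondary granule list was split. Ngp was at 16670 CPM in cluster 7 and 3900 CPM (3899.59) in cluster 15, a log2 ratio of -2.10 (-2.13 to -2.06). Rgcc, a regulator of cell cycle and complement response, was at 191 and 41.8 CPM, a log2 ratio of -2.18 (-2.52 to -1.88). Camp was less changed, at -0.25 (-0.27 to -0.23), and Mmp9 was at 0.17 (0.11 to 0.23). Of the 14 secondary granule genes tested 7 were lower and 7 higher (median -0.07), and 12 were below the median of all genes. Hp and Olfm4 were among the higher ones, with log2 ratios of 0.32 and 0.77. Ngp was also lower outside the neutrophil clusters, with 227 CPM in UAC and 82.8 CPM in UAC + miR-330, a log2 ratio of -1.46. Its range over the other clusters was 155 to 1256 CPM in 13 clusters of UAC and 50.8 to 239 CPM in 15 clusters of UAC + miR-330. Free RNA of these cells may be part of that level, and its part in the pair was not tested.

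In both pairs 94 of 5101 genes tested in both were at least 2-fold higher and 7 at least 2-fold lower. The pairs share their libraries, so this is a count and not a repeat. All of the higher genes but Dhrs9 (-0.12) and Nlrp3 (-0.70) were also higher with miR-330 outside the neutrophil clusters. Their log2 ratios there were above the median of all genes outside, 0.07. The part of this library-wide difference in the pairs was not tested. The medians of all genes, 0.29 and 0.28, were not taken off in this count. With them off, the Ngp-rich pair had 158 genes higher and 84 lower, and the Mmp8-rich pair 63 and 120. The 7 lower genes were Igh-6, Retn, Ifitm3, Zfp414, Dusp2, Mzb1 and Gadd45b, named after their values were seen. Retn, the secreted hormone resistin, was at 653 CPM in cluster 12 and 228 in cluster 9 (log2 ratio -1.52, -1.61 to -1.42), and at 111 in cluster 7 and 31.7 in cluster 15 (-1.79, -2.19 to -1.44). Ifitm3, an antiviral membrane protein, was at 306 and 108 CPM (-1.51, -1.65 to -1.37) and at 204 and 66.7 CPM (-1.61, -1.88 to -1.36). Its relatives Ifitm6 and Ifitm1 went the other way, with log2 ratios of 0.75 and 0.69 in the Ngp-rich pair and 0.63 and 0.46 in the Mmp8-rich pair, and stayed above the median of all genes in both. Outside the neutrophil clusters Retn was lower too, at 9.40 and 2.52 CPM (-1.90), and so was Ifitm3, at 11.1 and 5.02 CPM (-1.14).

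Of the 7, Igh-6 is the immunoglobulin gene. It was at 25.99 and 8.57 CPM in clusters 12 and 9 and at 32.3 and 12.9 CPM in clusters 7 and 15. Its direction outside depended on UAC cluster 13: the log2 ratio was 2.51 without that cluster and -1.55 with it, at 1849 CPM in UAC and 629.8 CPM in UAC + miR-330, a sum chosen after the values were seen. Haemoglobin was higher in both: Hba-a1 was at 24.3 CPM in cluster 12 and 50.02 in cluster 9, at 23.3 in cluster 7 and 66.7 in cluster 15, and outside at 215 and 2007 CPM, or 514 and 2007 CPM with UAC cluster 13 counted. All 9 erythroid markers summed to 35.0 and 74.7 CPM in clusters 12 and 9 and to 37.2 and 97.5 CPM in clusters 7 and 15, led by Hba-a1. At least 10 UMIs were found for 3 of the 9 in cluster 12, 4 in cluster 9, 3 in cluster 7 and 2 in cluster 15, so that the sums follow few genes. Epor was at 0 in clusters 12, 9 and 15, Hba-a3 in cluster 7, and Alas2, Klf1 and Slc4a1 in cluster 15, where cluster 7 had them at 0.226, 0.677 and 0.226 CPM. Their part in the result was not tested.

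Some of the genes higher in both pairs were at low levels. The transcript AABR07000398.1, which has no assigned function, was at 46.1 and 334 CPM in clusters 12 and 9 and at 48.1 and 362 CPM in clusters 7 and 15, with log2 ratios of 2.85 and 2.91, and it was also higher outside, at 2.38. Sun2, which links the nuclear envelope to the cytoskeleton, was at 8.59 and 24.7 CPM and at 5.42 and 16.5 CPM, with log2 ratios of 1.51 and 1.60 and 0.51 outside. Bach1, a repressor of haem oxygenase, was at 8.80 and 28.0 CPM and at 15.8 and 54.7 CPM, with log2 ratios of 1.66 and 1.79 and 1.23 outside. Nlrp3, the inflammasome sensor that leads to interleukin 1 release, was at 2.10 and 8.74 CPM and at 81.3 and 164 CPM, with 2.005 (1.06 to 3.21) and 1.01 (0.80 to 1.23). Outside the neutrophil clusters Nlrp3 was lower with miR-330, at -0.70 (-0.78 to -0.61).

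Lysozyme and the late response gene G0s2 moved apart in both pairs. Lyz2 was at 7923 and 11415 CPM in clusters 12 and 9 (log2 ratio 0.53, 0.51 to 0.55) and at 10295 and 15742 CPM in clusters 7 and 15 (0.61, 0.59 to 0.63). Relative to the median of all genes it was at 0.24 and 0.33. G0s2 was at 720 (719.9) and 368 CPM (-0.97, -1.05 to -0.89) and at 2047 and 1245 CPM (-0.72, -0.78 to -0.66). Outside the neutrophil clusters G0s2 was lower as well, at -1.27, and its median over the other clusters was 29.7 CPM in UAC and 11.2 CPM in UAC + miR-330.

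**Figure D3:**
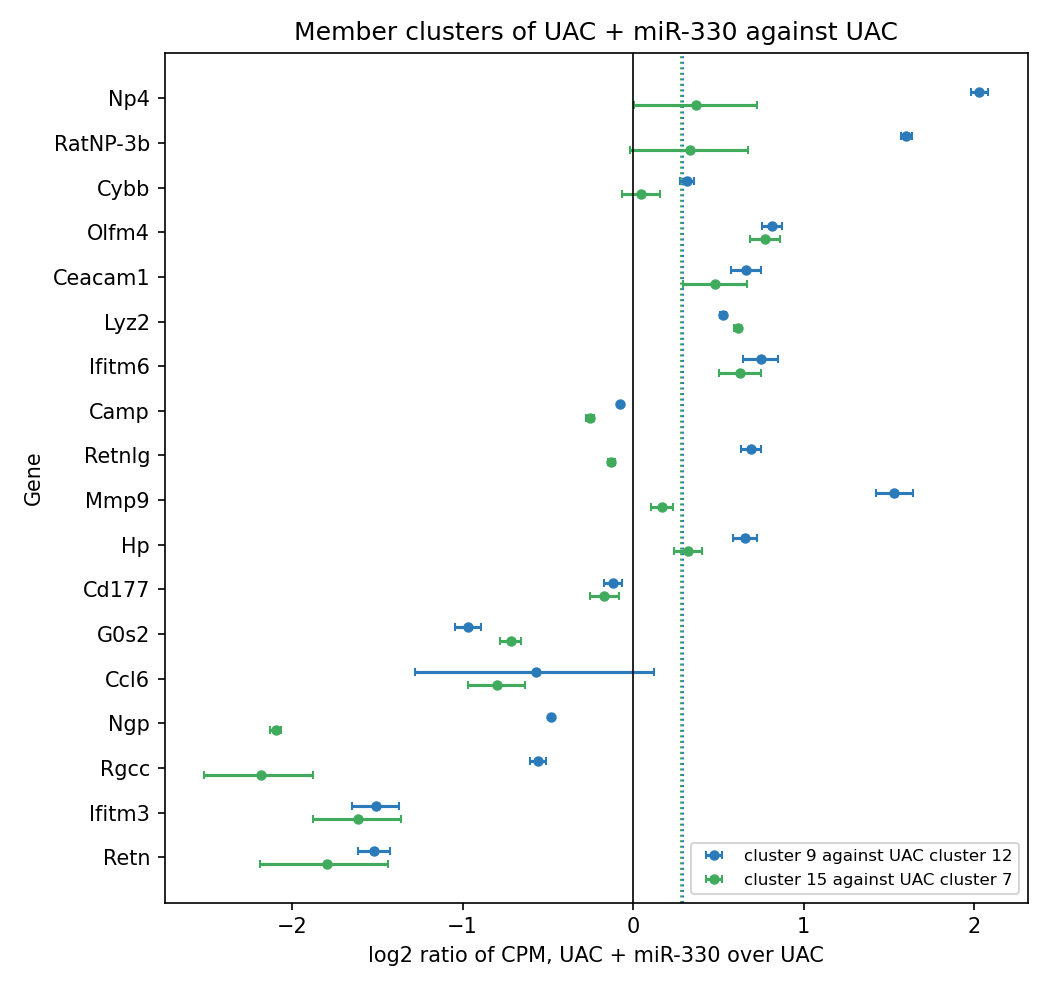
Log2 ratio of CPM of UAC + miR-330 over UAC (horizontal axis) for 18 genes in the Ngp-rich pair (blue) and the Mmp8-rich pair (green), points with 95% counting intervals and dotted lines at the medians of all genes tested. Ngp and Rgcc are lowest in the Mmp8-rich pair beside Retn and Ifitm3, and the defensin ratios are higher in the Ngp-rich pair than in the Mmp8-rich pair.

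Taking every cluster past the threshold removes the borders between the clusters past it and adds the sham library. The mature cluster of each library is then in, but the early cluster is in for UAC + miR-330 alone. UAC cluster 13 and sham cluster 14, the early clusters there, were below the threshold (0.417% and 0.924%). In these sums 543 of 8862 genes were at least 2-fold higher in UAC + miR-330 than in UAC (6.13%) and 26 lower (0.293%). Of all 8862 genes 7243 were higher, with a median of 0.33. After it was taken off, 199 genes were at least 2-fold higher and 93 lower. At a threshold of 20%, which leaves the mature and early clusters of UAC + miR-330 out and the mature cluster of UAC in, 262 of 8097 genes were higher and 543 lower, so these counts hold for 10% and 5% and not for 20%. The largest rises were AC098959.1 (9.99), Gzmbl3 (8.29), Prss34 (6.14), Mcpt1l1 (6.03), Prtn3 (6.02), Mcpt1l4 (5.72), Cma1 (5.62) and Ctsg (5.43), most of them proteases of mast cells and promyelocytes that cluster 18 brought into this sum. With the 10% threshold, cell cycle genes were higher for 25 of 27 (median 0.27), 17 of the 27 being below the median of all genes, and primary granule genes for 15 of 16 (median 0.54). Mast and basophil markers summed to 223 CPM in sham, 21.9 in UAC and 2701 in UAC + miR-330, 8 of 8, 5 of 8 and 8 of 8 of them with at least 10 UMIs and Mcpt10 the most abundant at 143, 8.77 and 1996 CPM. Eosinophil markers summed to 66.9 CPM in sham, 7.48 in UAC and 586 in UAC + miR-330, led by Prg2. The part of both marker lists in the result was not tested.

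Over all clusters past the threshold the primary granule list summed to 45705 CPM in sham, 46067 in UAC and 62485 in UAC + miR-330, with Mpo at 27.7, 67.9 and 285 CPM. Only the sum of UAC + miR-330 holds its early cluster, and UAC cluster 13, which is not in the UAC sum, had Mpo at 778 CPM. Of the secondary granule genes, Camp was at 26514 CPM in sham, 26156 in UAC and 24707 in UAC + miR-330. Ngp was at 20855, 21678 and 15333 CPM, and Lcn2 at 4501, 4912 and 5056 CPM. UAC + miR-330 was lowest of the 3 for Ngp, where sham and UAC were close, and highest for Lcn2, with its cluster 18, at 2954 CPM of Ngp, in this sum. In the sums of the 5 clusters Ngp was level, at 25484 CPM in UAC and 25503 CPM in UAC + miR-330 (log2 ratio 0.001, -0.007 to 0.009), and without UAC cluster 18 it was lower with miR-330, at -0.35. Retn was at 270.2, 460 (459.8) and 194 CPM and Ifitm3 at 231, 205 and 66.2 CPM, so that the low level of Ifitm3 with miR-330 stood below both other libraries, while sham was nearer to UAC + miR-330 for Retn. G0s2 was at 1530.1, 2092 and 1190 (1189.67) CPM and Cxcl2 at 218, 287 and 152 CPM, highest in UAC for both. Il1b was at 523, 482 and 523 CPM.

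The single sham cluster that met the rule, cluster 10, combined features of clusters 18 and 12. It had Ngp at 32120 CPM (32119.7) and Lcn2 at 7050.2 CPM with RatNP-3b at 27033, Np4 at 13104 and Mki67 at 90.1 CPM. Sham cluster 10 also had mast and basophil markers at 361 CPM, 8 of 8 with at least 10 UMIs, and Prg2 at 102 CPM. The mast and basophil sum was 12.9 to 40.6 CPM in the 5 clusters. Its Mmp8, at 2195 CPM, lay between clusters 12 and 9, and its Retnlg, at 1367 CPM, above both. The sham library had no cluster past the threshold beside cluster 10 and its mature cluster 8, in which Mmp8 was at 8574 CPM and Ngp at 3299 CPM, above the Ngp level of either crossbite mature cluster. The division of the neutrophil range into clusters thus differed in each of the 3 libraries.

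Of Il1b, Ctgf, Fgfr1 and Epor, which were looked at for the role of miR-330 in the joint, Il1b was the most abundant in these clusters. In the Ngp-rich pair its log2 ratio was 0.15 (-0.02 to 0.32) and in the Mmp8-rich pair 0.32 (0.21 to 0.44), at -0.14 and 0.04 relative to the median of all genes. In the sums Il1b was at 185 CPM in UAC and 219.7 CPM in UAC + miR-330 (0.24, 0.15 to 0.33; 0.08 relative to the median), and without cluster 18 UAC had 242.9 CPM, which turned the log2 ratio to -0.14 (-0.24 to -0.05; -0.42 relative to the median). Ctgf, connective tissue growth factor, was at 12.4 and 4.37 CPM in clusters 12 and 9 (59 and 25 UMIs; log2 ratio -1.48, -2.24 to -0.80), against 132 and 101 CPM outside the neutrophil clusters. Over all clusters past the threshold its log2 ratio was -1.08. Free RNA of other cells may be part of the Ctgf level, and its part was not tested. Fgfr1, a fibroblast growth factor receptor, had 0 UMIs in all 5 clusters, and Epor, the erythropoietin receptor, had 1 UMI in cluster 7 and 0 in the other 4. Tnf, which the study also names as a target of miR-330, was not among the genes looked at.

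Markers of other cells were low in the 5 clusters. The 11 chondrocyte and stroma markers summed to between 101 and 156 CPM, led by Col1a1 in each, against 7593 and 6951 CPM outside the neutrophil clusters. The 10 B cell markers summed to between 270.3 and 356.8 CPM, led by Ebf1, against 10838 and 13022 CPM outside. Monocyte and macrophage markers summed to between 38.2 and 71.4 CPM, dendritic cell markers to between 53.1 and 159.6 CPM, megakaryocyte markers to between 0.460 and 2.73 CPM and endothelial markers to at most 0.903 CPM. The T and NK cell markers summed to 544 CPM in cluster 18, of which Nkg7, a cytotoxic granule protein, was 535 CPM. These markers summed to between 8.58 and 88.2 CPM in the other 4. Nkg7 was also at 845 CPM in the left-out UAC + miR-330 cluster 18, and its source there was not tested.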

How the data were processed

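The deposited tables, 1 per library, hold 3 columns per cluster: a mean count, a log2 fold change and a p-value, as the authors' Cell Ranger clustering of each library wrote them. The signal used is the deposited mean count of each gene in each cluster; each value is a whole number of UMIs divided by 1 number per cluster, so UMIs were recovered by dividing by the smallest positive value of the column, and came out whole within at most 1e-07. The deposited log2 fold changes and p-values compare a cluster with the rest of its library and were not used. Libraries were made with the Chromium Next GEM Single Cell 3' kit v3.1. The submitters' processing notes name Cell Ranger 7.0, STAR and Seurat 4.0.1, and GRCh38 and mm10 as builds, although the gene IDs are rat; the annotation release is not stated. Gene names were matched through the GRCr8 RefSeq table: 572 of 599 listed names matched, 2 through a synonym, and 27 did not.

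The clusters chosen by the rule were summed per library. Ratios had 0.5 UMI added; genes with at least 50 UMIs in the compared sets together were tested for a 2-fold difference, with no p-value, since there is 1 library per condition. Gene names came from 22 lists, the 15 most abundant genes, the 10 largest changes each way with at least 100 UMIs, the 10 most enriched genes with at least 200 UMIs, and 4 genes tied to the study's question; genes named outside these were chosen after their values were seen. The clusters and lists were chosen with earlier results of these data known. Other thresholds, scalings, minimum counts and sums were tried, and lists were also counted over genes with at least 50 UMIs in the sham clusters past the threshold, chosen after seeing the data. Doublets and free RNA were not treated, and cell barcodes are not in the files. The recovery was checked on simulated data. Tools were Python 3.11.15 with numpy 2.4.6, pandas 2.3.3, scipy 1.17.1 and matplotlib 3.10.9.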

Additional observations from a re-analysis of the deposited data

How the results depend on the processing

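The directions of defensin and cell cycle genes in the comparison of UAC + miR-330 with UAC depended on which cluster 18 was in the sums. With all clusters past the threshold, the log2 ratios turned to 0.022 for Asf1b, 0.18 for Defa11, 0.54 for Defa5, 2.07 for Mpo, 0.76 for Ms4a3, 0.31 for Ncaph, 0.54 for Np4, 0.64 for Pclaf and 0.32 for RatNP-3b, and the list medians to 0.54 for primary granule and 0.27 for cell cycle genes; the shares were 15.9% in UAC and 14.2% in UAC + miR-330, and 543 genes were higher and 26 lower. With cluster 18 of UAC + miR-330 added, an alternative chosen after seeing the data, they were 0.083 for Asf1b, 0.032 for Ccna2, 0.23 for Defa11, 0.58 for Defa5, 2.12 for Mpo, 0.81 for Ms4a3, 0.36 for Ncaph, 0.59 for Np4, 0.70 for Pclaf and 0.36 for RatNP-3b, with medians of 0.58 and 0.31 and 609 genes higher and 33 lower. With UAC cluster 18 left out, they were 3.09 for Defa11, 2.95 for Defa5, 0.96 for LOC100359539, 1.29 for Ms4a3, 2.46 for Np4 and 2.06 for RatNP-3b, with medians of 0.48 and 0.64 and 41 genes lower. With all clusters past the threshold the median of all genes was 0.33. Asf1b, Defa11, Ncaph, RatNP-3b and the cell cycle median were below it there. The turn follows from the construction, since these alternatives put the defensin-rich cluster on both sides or on neither.

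The pairs of clusters were chosen after seeing the data. In cluster 9 against 12 the ratios were 2.93 for Defa11, 2.62 for Defa5, 0.72 for LOC100359539, 0.89 for Ms4a3, 2.03 for Np4 and 1.60 for RatNP-3b, the medians 0.58 for primary granule and 0.90 for cell cycle genes, and 27 genes were lower. In cluster 15 against 7 they were 0.37 for Np4 and 0.33 for RatNP-3b, the primary granule median 0.12, and 49 genes were lower. With cluster 9 left out, Itga8 was at -0.094, and 908 genes were higher and 1084 lower. With cluster 7 left out 798 genes were higher. The cause was not tested for these clusters.

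Scaling and filters moved counts. Genes higher in UAC + miR-330 numbered 518 with clusters weighted equally, 776 with the mean counts unscaled and 146 after centring on the median; the cause was not tested. A minimum of 10 UMIs tests more genes and one of 200 fewer, which gave 669 and 155 genes higher and 887 and 154 lower. By the same construction, 1973 genes were lower than in the mature cluster of UAC at 10 UMIs, and 519 were higher and 818 lower at 200. In UAC + miR-330 it was 1311 higher and 1651 lower at 10 UMIs, and 344 and 655 at 200. Against the early cluster, 3480 genes of UAC and 3401 of UAC + miR-330 were lower at 10 UMIs, and 773 and 831 at 200. Against the mature cluster of UAC, 717 genes were higher with 5 UMIs added and 581 without cluster 18; against that of UAC + miR-330, 181 were higher and 526 lower without cluster 9. Without mitochondrial and ribosomal protein genes, S100a8 and S100a9, 1186 genes of UAC were lower than in the early cluster.

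Outside the neutrophil clusters, the log2 ratio of Igh-6 was -1.55 when every cluster below the threshold was counted, an alternative chosen after seeing the data, because UAC cluster 13 then enters the UAC sum.

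With genes chosen by at least 50 UMIs in the sham clusters past the threshold, an alternative chosen after seeing the data that tests 6075 genes, 173 were higher and 255 lower in UAC + miR-330 than in UAC, and 894 genes of UAC and 1293 of UAC + miR-330 were lower than in the early cluster.

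Counting each result once under each alternative, values were the same 491 times for log2 ratios, 224 for list medians, 63 for counts and 7 for shares. They moved 350, 184, 39 and 3 times without being counted as a change of direction. A change of direction was counted 35 times for log2 ratios and 9 for list medians, and only where the main value was at least 2-fold. Smaller values that changed sign are counted among those that moved or were the same. A threshold of 5% or 20% chose the same 5 clusters. For all clusters past the threshold, where these thresholds were tried after seeing the data, 5% changed nothing, and 20% dropped the mature and early clusters of UAC + miR-330, which gave a share of 8.12%, 262 genes higher and 543 lower. Counting error is small for the abundant genes, while variation between rats and between libraries could not be measured.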
